A study of Homo sapiens with 16 samples.

Results

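Serine, asparagine and one-carbon synthesis was followed through 10 genes in A549 cells depleted of METTL16 or of eIF4E2. The genes are PHGDH, PSAT1, PSPH, SHMT1, SHMT2, MTHFD1, MTHFD2, ALDH1L2, ASNS and PCK2, picked by gene symbol from the 12587 genes listed in the deposited tables, and the rule itself used no measured value. Of these, 8 were listed in all 8 samples, ALDH1L2 in 6 samples and ASNS in 1. A549 is a human lung adenocarcinoma line. Values are TPM, in which reads are divided by gene length and every library is brought to one total. The input library of a sample gives the mRNA level, the footprint library gives the mRNA held by ribosomes, and footprint over input is called translation efficiency here.

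Each of 8 samples gave 1 input and 1 footprint library, 16 in all, in 3 tables. The first table held 2 hybrid clones made with 1 guide against METTL16 (sgM16-1 and sgM16-2, called clone 1 and clone 2) and their control. That control is labelled untreated, whereas the series text names a non-targeting guide group, so guide delivery and cloning cannot be told apart from METTL16 loss. The second table held cells with 1 hairpin against METTL16 (shM16-2) and a scrambled-hairpin control, scramble 1. The third held 2 biological replicates of 1 hairpin against eIF4E2 and a further scrambled-hairpin control, scramble 2. All cells had received fresh medium for 2 h and then cycloheximide, which arrests ribosomes, at 100 µg/mL for 5 min. Footprints were made with RNase I and cut from gels at 30 nt, and input RNA was broken in 10 mM ZnCl2 and cut at 40 to 60 nt. Beyond the eIF4E2 replicates and the clones, nothing says that samples came from separate cultures, so the spread between samples may be technical.

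Depth was modest, with 462611 to 699461 reads in the listed genes per input library and 196995 to 876336 per footprint library. METTL16 input was 6.80 and 6.94 TPM in the clones against 12.8 TPM in their control, and 3.50 TPM with the METTL16 hairpin against 11.1 TPM in scramble 1. EIF4E2 input was 7.69 and 3.57 TPM with the eIF4E2 hairpin against 21.4 TPM in scramble 2, while scramble 1 had 8.47 TPM, so that the first eIF4E2 replicate was close to a control of another table. All 6 NRF2 target genes typical of this KEAP1-mutant line were listed in all 8 samples. All 6 epithelial markers were listed in at least 1 sample, but EPCAM only in 5 and CDH1 only in 7. Where listed, input ran from 1.25 to 79.4 TPM for CDH1 and from 1.06 to 34.1 TPM for KRT19. None of 4 alveolar lineage markers (NKX2-1, SFTPB, SFTPC and NAPSA), 3 leukocyte markers or 3 endothelial markers was listed, and 2 of 4 fibroblast markers were (COL1A1 and ACTA2).

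Cells make serine from the glycolytic intermediate 3-phosphoglycerate through PHGDH, PSAT1 and PSPH in turn. The hydroxymethyltransferases SHMT1, in the cytosol, and SHMT2, in mitochondria, then move a carbon of serine onto tetrahydrofolate, and MTHFD1, MTHFD2 and ALDH1L2 carry it on to formate, purines, thymidylate and NADPH. ASNS makes asparagine from aspartate and glutamine, and PCK2 makes phosphoenolpyruvate in mitochondria, which can feed serine synthesis when glucose is short. Many of these genes are known targets of ATF4, the transcription factor of the amino acid response, and in KEAP1-mutant lung cancer cells NRF2 is known to raise ATF4 and with it the serine pathway.

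ATF4 binds composite elements of the form TGATGNAA, and NRF2 binds antioxidant response elements of the form TGACNNNGC. RefSeq promoters (GRCh38.p14, 250 bases before to 50 after a start) were at hand for 7 of the 10 genes and were searched on both strands. The ATF4 form was in 1 of 7, ASNS, against 3.62% of 35116 promoters. The NRF2 form was in 1 of 7, MTHFD2, against 13.3% of all promoters. For the other genes this says only that these letters are not in this window. The promoters of ASNS, of MTHFD2 and of PSAT1, the member with the highest input TPM, are shown 5′ to 3′ along their own strand, with matches in capitals. They lie at chr7:97872359-97872658 (minus strand), chr2:74198365-74198664 (plus strand) and chr9:78296875-78297174 (plus strand).
ASNS: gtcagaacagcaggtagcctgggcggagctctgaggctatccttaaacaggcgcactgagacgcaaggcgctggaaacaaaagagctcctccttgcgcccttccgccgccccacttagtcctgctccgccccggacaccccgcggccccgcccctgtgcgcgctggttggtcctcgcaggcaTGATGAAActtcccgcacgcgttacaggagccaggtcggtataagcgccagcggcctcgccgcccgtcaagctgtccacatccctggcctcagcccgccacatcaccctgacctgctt
MTHFD2: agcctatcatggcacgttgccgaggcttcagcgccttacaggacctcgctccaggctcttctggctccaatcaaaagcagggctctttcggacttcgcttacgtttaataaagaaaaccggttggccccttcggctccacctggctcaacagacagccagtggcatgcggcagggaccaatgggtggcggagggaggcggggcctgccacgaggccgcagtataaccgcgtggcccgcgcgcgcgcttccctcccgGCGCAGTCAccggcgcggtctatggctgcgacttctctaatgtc
PSAT1: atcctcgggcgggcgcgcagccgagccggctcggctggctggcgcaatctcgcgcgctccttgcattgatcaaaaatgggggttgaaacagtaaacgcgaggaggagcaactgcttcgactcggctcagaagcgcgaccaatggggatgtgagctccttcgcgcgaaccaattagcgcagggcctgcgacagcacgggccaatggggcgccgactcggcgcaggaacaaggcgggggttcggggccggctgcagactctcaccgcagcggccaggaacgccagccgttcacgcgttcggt
The ASNS match, TGATGAAA, starts 68 bases before the transcript start on the coding strand. The MTHFD2 match begins at base 7 after the start and reads TGACTGCGC on the other strand. PSAT1 held neither form. The ASNS window belongs to the start of 1 transcript and lies inside the annotated span of the gene.

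PSAT1 stood above the other members in TPM in every input library, and the summed input was lowest with the METTL16 hairpin. In such bulk samples, fewer cells of a kind and less RNA per cell cannot be told apart. The summed input of the listed members was 258 TPM in clone 1 and 392 TPM in clone 2, against 337 TPM in their control. It was 152 TPM with the METTL16 hairpin against 327 TPM in scramble 1, and 323 and 273 TPM with the eIF4E2 hairpin against 502 TPM in scramble 2. PSAT1 made up 36.5% to 54.7% of each input sum. The median input over the 8 samples ran from 144 TPM for PSAT1 through 53.4 for SHMT2, 37.0 for PSPH, 23.8 for MTHFD2, 16.7 for SHMT1, 15.3 for MTHFD1 and 12.4 for PHGDH, with PCK2 and ALDH1L2 at the low end. SHMT1, MTHFD1 and PHGDH are neighbours in that order whose ranges over the controls overlap. The order holds for TPM, which divides reads by gene length. In reads recovered from the TPM values, the median input was 129 for PSAT1 and 121 for MTHFD2. In eIF4E2 replicate 2, MTHFD2 had 118 input reads and PSAT1 had 94. Between the 3 controls alone, input differed by 3.03 times for PHGDH, 2.68 times for PCK2 and 1.22 times for PSPH.

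**Figure D1:**
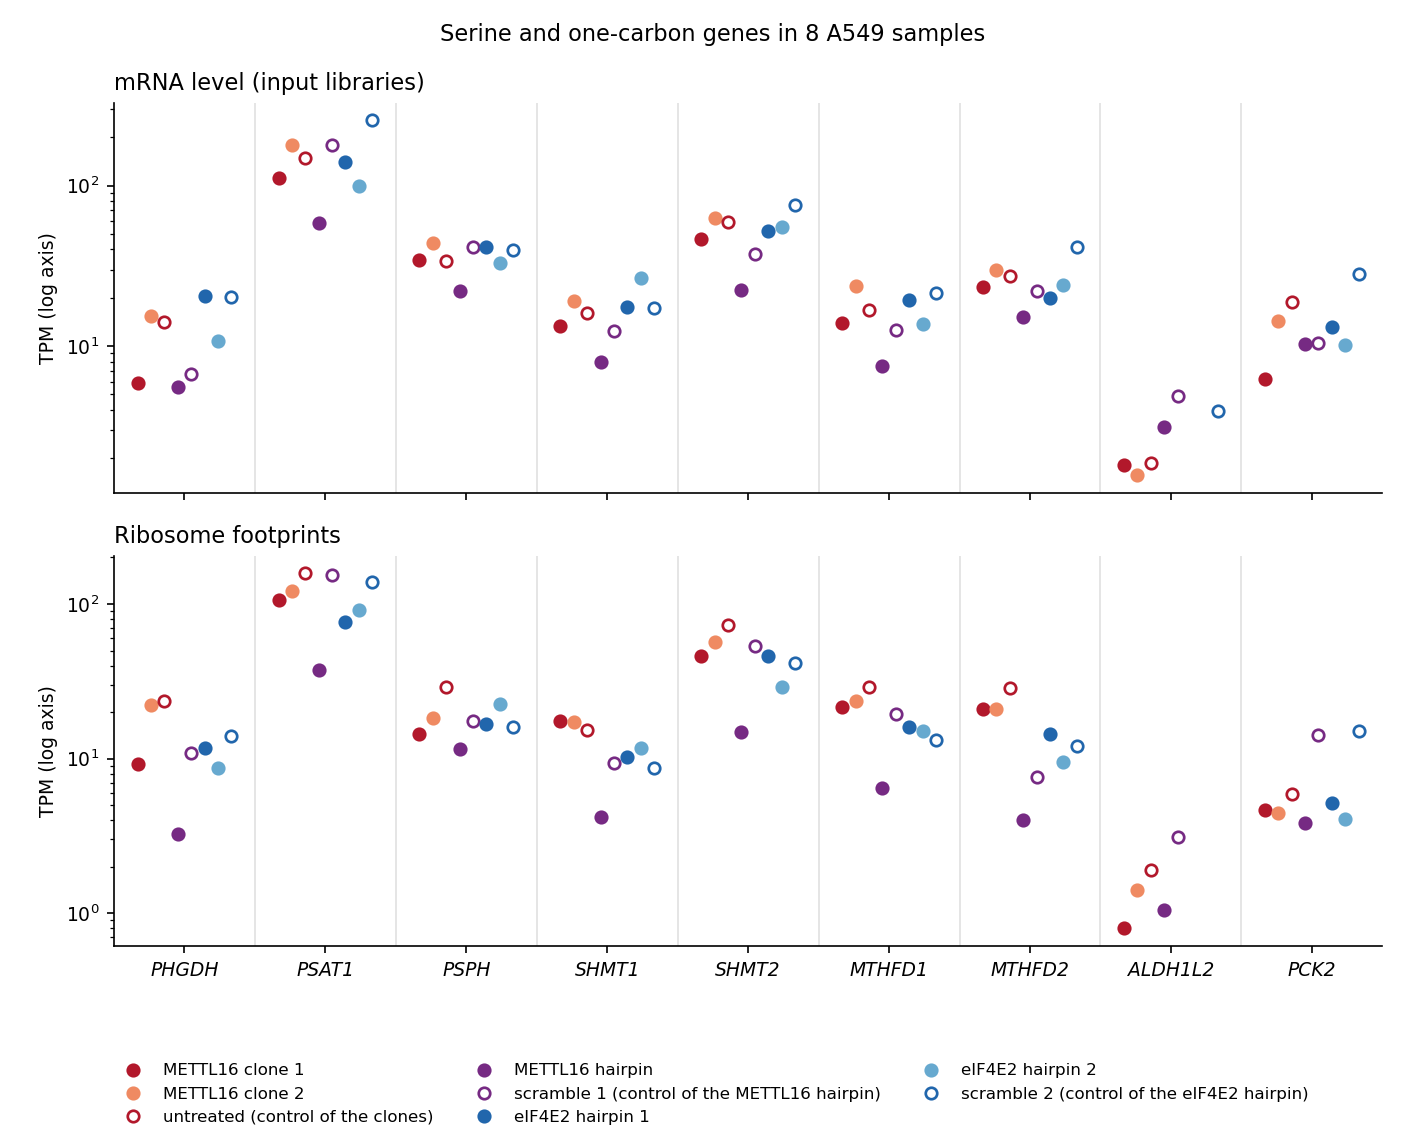
Input (top) and footprint (bottom) TPM on a log axis for 9 members in the 8 A549 samples, with filled points for depleted samples and open points for controls. The METTL16 hairpin sample is lowest in most columns, PSAT1 is the highest gene, and the footprint value of 0 for ALDH1L2 in scramble 2 cannot be drawn.

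PSAT1 (chromosome 9, 78297125 to 78330093), the aminotransferase of the second step, gave the clearest pattern. Its footprints were 106 and 121 TPM in clones 1 and 2 and 37.6 TPM with the METTL16 hairpin. They were 76.0 and 91.6 TPM with the eIF4E2 hairpin, against 158 TPM in the untreated control, 155 in scramble 1 and 139 in scramble 2. All 5 depleted samples lay below all 3 controls, as they did for 1.27% of 8021 genes. The control footprint values spanned only 1.14 times on the TPM scale. Listed genes held 35.1%, 27.6% and 17.5% of footprint TPM in the untreated control, scramble 1 and scramble 2. The narrow span thus depends on the scaling. Its input was 112 and 180 TPM in the clones, 58.2 TPM with the METTL16 hairpin and 139 and 99.9 TPM with the eIF4E2 hairpin. The controls had an input of 149, 179 and 255 TPM in the same order, so that clone 2 reached the control range and the other 4 depleted samples lay below it. The translation efficiency of PSAT1, 0.944, 0.673, 0.646, 0.546 and 0.917 in the 5 depleted samples, overlapped the 1.06, 0.866 and 0.545 of the controls.

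PHGDH (chromosome 1, 119711934 to 119744215), the dehydrogenase of the first step, did not separate the groups in input. Its input was 5.90 and 15.4 TPM in the clones against 14.1 TPM in their control, 5.56 TPM with the METTL16 hairpin against 6.68 TPM in scramble 1, and 20.4 and 10.7 TPM with the eIF4E2 hairpin against 20.3 TPM in scramble 2. The clones fell on both sides of their control, and clone 1 was close to the low pair of the hairpin table. Footprints were 9.30 and 22.1 TPM in the clones against 23.7 TPM, 3.23 TPM with the METTL16 hairpin against 10.9 TPM, and 11.7 and 8.67 TPM with the eIF4E2 hairpin against 14.1 TPM. Each depleted sample was thus below its own control in footprints, although the controls overlapped the depleted samples across tables. With the METTL16 hairpin 95.2% of all genes were below scramble 1. Against the all-gene median difference on the log2(TPM + 1) scale, PHGDH footprints were 0.12 higher in clone 2 and lower in the other depleted samples. These values rest on 21 to 78 input reads and 28 to 97 footprint reads.

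PSPH (chromosome 7, 56011064 to 56051444), the phosphatase of the last step, had the narrowest input range among the controls of the 8 members listed throughout. Its input was 34.6 and 44.0 TPM in the clones against 33.9 TPM, 22.1 TPM with the METTL16 hairpin against 41.3 TPM, and 41.7 and 33.1 TPM with the eIF4E2 hairpin against 39.4 TPM. Only the METTL16 hairpin sample stood apart, below all others. Footprints were 14.5 and 18.4 TPM in the clones against 29.3 TPM, 11.6 TPM with the METTL16 hairpin against 17.5 TPM, and 16.8 and 22.7 TPM with the eIF4E2 hairpin against 15.99 TPM. Translation efficiency was 0.419 and 0.418 in the clones against 0.862 in their control, the highest of the 8 samples, while both scrambles had values near those of the clones, 0.424 and 0.406.

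Of the hydroxymethyltransferases, the mitochondrial SHMT2 (chromosome 12, 57229711 to 57234935) was the more abundant in every library. SHMT2 input was 46.3 and 63.2 TPM in the clones against 59.0 TPM, 22.2 TPM with the METTL16 hairpin against 37.6 TPM, and 51.8 and 55.1 TPM with the eIF4E2 hairpin against 76.1 TPM. SHMT2 footprints were 46.4 and 57.0 TPM in the clones against 73.3 TPM, 14.8 TPM with the METTL16 hairpin against 53.7 TPM, and 45.8 and 29.1 TPM with the eIF4E2 hairpin against 41.2 TPM. Both METTL16 tables had lower SHMT2 footprints in the depleted samples, whereas the eIF4E2 replicates lay on both sides of scramble 2. Footprints were likewise lower for 52.9% of genes in both clones and for 95.2% with the METTL16 hairpin. The cytosolic SHMT1 (chromosome 17, 18327873 to 18363550) had an input of 13.4 and 19.1 TPM in the clones against 16.002 TPM, 7.92 TPM with the METTL16 hairpin against 12.4 TPM, and 17.5 and 26.4 TPM with the eIF4E2 hairpin against 17.3 TPM. Its footprints were 4.18 TPM with the METTL16 hairpin against 9.43 TPM, and 10.3 and 11.7 TPM with the eIF4E2 hairpin against 8.67 TPM. SHMT1 was the 1 member whose footprints were higher in both clones than in their control, at 17.5 and 17.3 TPM against 15.4 TPM.

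MTHFD2 (chromosome 2, 74198615 to 74217565), the mitochondrial dehydrogenase and cyclohydrolase, had its highest input in scramble 2. Its input was 23.5 and 29.7 TPM in the clones against 27.4 TPM, 15.1 TPM with the METTL16 hairpin against 22.0 TPM, and 19.9 and 24.2 TPM with the eIF4E2 hairpin against 41.3 TPM. The eIF4E2-depleted values were below scramble 2 but within the range of the other 2 controls or just under it. MTHFD2 footprints differed by 3.72 times between the controls alone, and were at 21.1 and 21.0 TPM in the clones against 28.4 TPM, 3.99 TPM with the METTL16 hairpin against 7.64 TPM, and 14.3 and 9.45 TPM with the eIF4E2 hairpin against 12.1 TPM. Its translation efficiency among the 3 controls alone ran from 0.294 to 1.04, a range of 3.53 times. The cytosolic MTHFD1 (chromosome 14, 64388353 to 64460025), which joins 3 folate reactions in 1 protein, had an input of 13.9 and 23.6 TPM in the clones against 16.8 TPM, 7.56 TPM with the METTL16 hairpin against 12.7 TPM, and 19.5 and 13.8 TPM with the eIF4E2 hairpin against 21.4 TPM. MTHFD1 footprints were 21.5 and 23.6 TPM in the clones against 28.9 TPM, 6.43 TPM with the METTL16 hairpin against 19.6 TPM, and 16.1 and 15.1 TPM with the eIF4E2 hairpin against 13.2 TPM. They were below the control in both clones, as were 52.9% of genes, and with the METTL16 hairpin, as were 95.2%. With the eIF4E2 hairpin they were above the control in both replicates, as were 48% of genes.

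ALDH1L2 (chromosome 12, 105019790 to 105084458), the mitochondrial formyltetrahydrofolate dehydrogenase, was near the listing limit. Its input was 1.83 and 1.57 TPM in the clones against 1.87 TPM, and 3.12 TPM with the METTL16 hairpin against 4.93 TPM, from 6 to 18 reads. It was not listed with the eIF4E2 hairpin, and scramble 2 had 3.92 TPM of input and no footprint read, which allows up to 0.997 TPM at 3 reads. ASNS (chromosome 7, 97851677 to 97928441) was listed in clone 2 alone, with 1.01 TPM of input and no footprint read, so that no comparison was possible. RefSeq places a readthrough RNA, CZ1P-ASNS, over ASNS and names 5 ASNS pseudogenes, none of them listed in the tables, and how the authors assigned reads there was not tested. In all, 6 members have named pseudogenes and 7 overlap another annotated gene, among them SMCR8 over SHMT1, ZBTB25 over MTHFD1 and NRL over PCK2. Whether counting used strand is not given in the sources used here, so reads of such pairs cannot be told apart.

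PCK2 (chromosome 14, 24094171 to 24104125) had few reads but, on the TPM scale, a footprint pattern like that of PSAT1. Its footprints were 4.66 and 4.48 TPM in the clones, 3.83 TPM with the METTL16 hairpin and 5.13 and 4.09 TPM with the eIF4E2 hairpin, against 5.91, 14.2 and 15.1 TPM in the untreated control, scramble 1 and scramble 2. Every depleted sample was below every control, as was the case for 1.27% of 8021 genes. For PCK2 this did not hold once each library was centred on its median gene. The untreated control was only just above the depleted samples, and counts ran from 6 to 38 reads. PCK2 input was 6.23 and 14.3 TPM in the clones against 18.8 TPM, 10.3 TPM with the METTL16 hairpin against 10.5 TPM, and 13.2 and 10.1 TPM with the eIF4E2 hairpin against 28.1 TPM. The input of the METTL16 hairpin sample was thus close to its control while the footprints were lower.

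In the METTL16 clones, footprints of most members were below the control, and mRNA levels of most members lay on both sides of it. PSAT1 footprint reads, scaled for depth, were 0.671 times (exact 95% interval 0.544 to 0.830) and 0.768 times (0.591 to 0.994) those of the control in clones 1 and 2. Such intervals lay below 1 for 19.5% of genes in clone 1 and 14.9% in clone 2. On the log2(TPM + 1) scale PSAT1 footprints were 0.35 and 0.16 below the all-gene median difference. Footprints were lower in both clones for 8 of 9 members, against 52.9% of the 8505 genes tested, and higher for SHMT1, against 18.4%, and the median member difference was -0.47 on the log2(TPM + 1) scale against -0.23 for all genes. Input was lower in both clones for 2 of 9 members, PCK2 and ALDH1L2, against 29.6% of all genes, and higher in both for 1, PSPH, against 43.3%. On that scale translation efficiency was lower in both clones for 7 of 9 members, against 55.1% of all genes, and higher for 1 of 9, PCK2, against 18%. As footprint over input TPM, PCK2 was at 0.3143 in clone 2 and 0.3144 in the control. The medians were close, -0.38 for members and -0.33 for all genes.

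No member passed limma with Benjamini-Hochberg adjustment at 0.05 in the clones. Over all genes that test called 1 higher and 0 lower in input (0.0118% and 0%) and 0 in footprints or translation efficiency. At an unadjusted p under 0.05 it held 743 higher and 174 lower genes in input, 170 and 435 in footprints, and 90 and 639 in translation efficiency. The limma-voom test on recovered reads called 0 members, and in input 2 genes higher (0.0235%) and 4 lower (0.047%). PCK2 input averaged 10.2 TPM in the clones and 18.8 TPM in the control, a log2 difference of -0.91 (SE 0.50, limma adjusted p = 0.545). PSPH footprints averaged 16.4 TPM in the clones and 29.3 TPM in the control, a difference of -0.80 (SE 0.33, limma adjusted p = 0.680), and its translation efficiency differed by -1.00002 (SE 0.46, limma adjusted p = 0.578). SHMT2 footprints differed by -0.50 (SE 0.31, limma adjusted p = 0.718), and PHGDH footprints by -0.68 (SE 0.60, limma adjusted p = 0.771). The single control was assumed to vary like the clones, so these tests measure the spread between 2 clones.

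The METTL16 hairpin sample was below scramble 1 for all 9 listed members, in input and in footprints. The same was true of 71.2% of 8168 genes in input and of 95.2% in footprints, so a lower value alone does not set the members apart. The listed genes held 16.1% of the footprint TPM of that sample against 27.6% in scramble 1. The median member difference in input was -0.59 against -0.32 for all genes, and in footprints -1.47 against -1.06. Below the all-gene median lay 7 of 9 members in input and 5 of 9 in footprints. Translation efficiency was lower for 8 of 9 members, against 84.3% of genes, with medians of -0.49 for members and -0.76 for all genes. With 1 library on each side there was no test, and the intervals given next cover counting error only.

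PSAT1 stood out most, with a log2 difference of -1.60 in input and -2.01 in footprints. Its depth-scaled input reads were 0.326 times those of scramble 1 (exact Clopper-Pearson 95% interval 0.243 to 0.433), and its footprint reads 0.243 times (0.191 to 0.307). It was the 1 member lower by at least 1 log2 unit in input, against 11.9% of all genes, and 7 of 9 members were that much lower in footprints, against 54.4%. SHMT2 footprints were 0.275 times (0.210 to 0.359) and PHGDH footprints 0.297 times (0.194 to 0.450) those of scramble 1. Intervals lay below 1 for 5 of 9 members in input, against 25.9% of genes, and for 8 of 9 in footprints, against 70.1%. PCK2 had an input ratio of 0.977 (0.499 to 1.98) and a footprint ratio of 0.270 (0.150 to 0.471), which gave it the lowest translation efficiency difference of the members, -1.62. PSPH was at the other end, with a translation efficiency difference of 0.32 against -0.76 for the median gene.

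**Figure D2:**
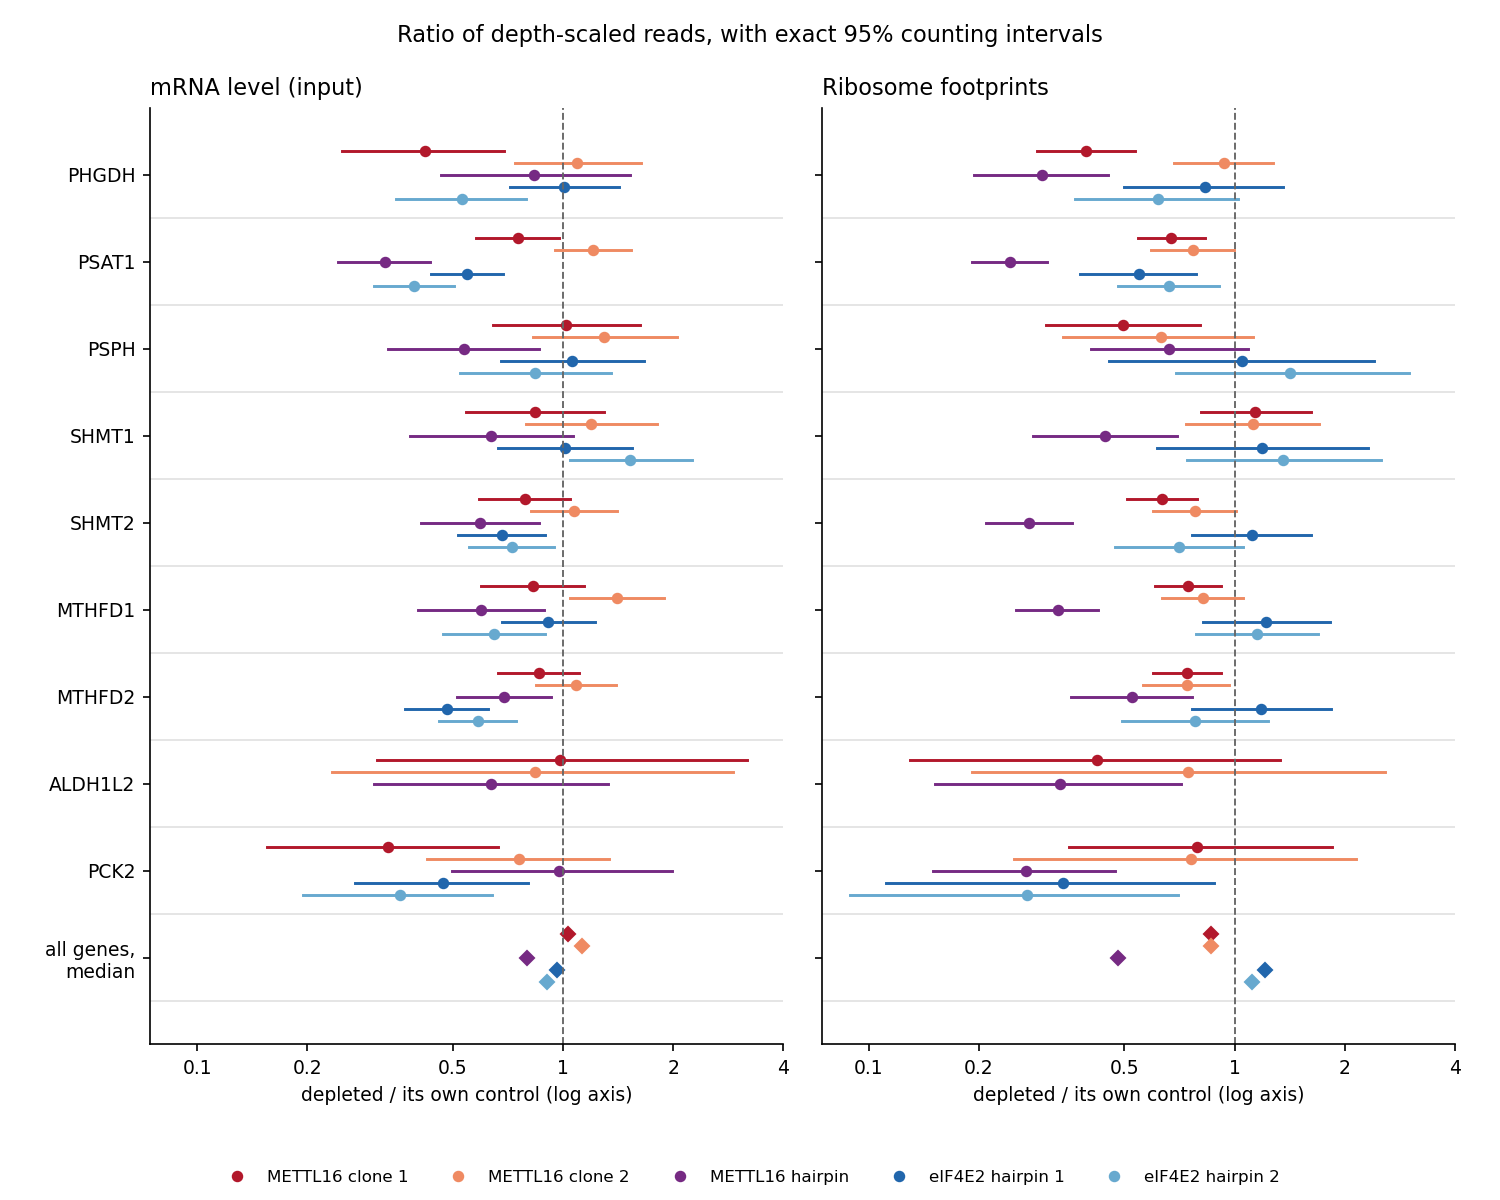
Ratio of depth-scaled reads in each depleted sample over its own control for input (left) and footprints (right) on a log axis, with exact 95% intervals for counting error. Diamonds are the median change of all genes on the log2(TPM + 1) scale, and PSAT1 footprints lie below 1 in all 5 depleted samples.

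With the eIF4E2 hairpin, mRNA of PSAT1, PCK2, MTHFD2, SHMT2 and MTHFD1 was below that of scramble 2 in both replicates. SHMT1 mRNA was above it by 0.01 in replicate 1 and 0.58 in replicate 2 on the log2(TPM + 1) scale. Input was lower in both replicates for 5 of 8 members, against 46% of 8597 genes, and higher for SHMT1, against 30.1%, and the median member difference was -0.46 against -0.10 for all genes. Footprints were lower in both for 3 of 8 members, against 22.6%, and higher in both for 3 of 8, against 48%, with medians of -0.11 and 0.20. Translation efficiency was higher in both replicates for 3 of 8 members, against 52.8% of genes, and lower for 1 of 8, against 19.4%, with medians of 0.34 and 0.32.

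No member passed limma in this comparison, where that test called 1 gene higher and 0 lower in input (0.0116% and 0%), 49 higher and 5 lower in footprints (0.57% and 0.0582%) and 0 in translation efficiency, where 688 and 119 genes had an unadjusted p under 0.05. PSAT1 input averaged 120 TPM with the eIF4E2 hairpin and was 255 TPM in scramble 2, a log2 difference of -1.10 (SE 0.26, limma adjusted p = 0.497). PCK2 differed from scramble 2 by -1.21 in input (SE 0.39, limma adjusted p = 0.589) and by -1.53 in footprints (SE 0.39, limma adjusted p = 0.134). MTHFD2 differed by -0.88 in input (SE 0.37, limma adjusted p = 0.679) and by 0.83 in translation efficiency (SE 0.52, limma adjusted p = 0.636).

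The reads recovered from the TPM steps gave calls that the TPM values did not. By limma-voom on those reads, PSAT1 fell in input, with a log2 change of -0.9999 (SE 0.19, adjusted p = 1.11e-04), and in footprints, with -0.96 (SE 0.26, adjusted p = 0.0459). MTHFD2 fell in input, with -0.81 (SE 0.20, adjusted p = 0.00569). Among all genes voom called 203 lower (2.36%) and 149 higher (1.73%) in input, and 34 lower (0.395%) and 16 higher (0.186%) in footprints. These calls rest on scramble 2, which had the highest PSAT1, MTHFD2 and PCK2 input of the 8 samples. With both scrambles as controls voom called 0 members, with adjusted p = 0.201 and a log2 difference of -0.92 for PSAT1 input, 0.395 and -0.90 for PSAT1 footprints, and 0.502 and -0.53 for MTHFD2 input. PSAT1 input reads were 0.547 times (exact 95% interval 0.434 to 0.687) and 0.392 times (0.303 to 0.504) those of scramble 2 in replicates 1 and 2, and PCK2 footprint reads 0.339 times (0.111 to 0.876) and 0.271 times (0.0889 to 0.698). Input intervals lay below 1 for 11.8% and 16% of all genes in replicates 1 and 2, and footprint intervals for 2.26% and 3.95%.

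Set against all 3 controls together, PSAT1 was the 1 member whose footprints separated all 5 depleted samples under either scaling tried. PSAT1 footprints averaged 88.2 ± 44.5 TPM in METTL16-depleted samples (SD, n = 3), 83.8 ± 11.0 TPM in eIF4E2-depleted samples (SD, n = 2) and 150.5 ± 10.2 TPM in controls (SD, n = 3). PCK2 footprints averaged 4.32 ± 0.44 TPM, 4.61 ± 0.73 TPM and 11.7 ± 5.07 TPM in the same groups. These were the 2 of 8 members whose footprints were lower in all 5 depleted samples than in all 3 controls, as were 102 of 8021 genes (1.27%). When each library was centred on its median gene, a check chosen after seeing the data, PSAT1 and SHMT2 were the 2 members with that separation and PCK2 was not, against 0.848% of genes, so the PCK2 separation depends on the TPM scaling.

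For METTL16 depletion alone the footprint separation held for the same 2 members, PSAT1 and PCK2 (3.83% of genes), and in input for 0 of 8 (4.05%). For eIF4E2 depletion it held in footprints for PSAT1 and PCK2 (12.4%) and in input for PSAT1 (5.65%). SHMT1 input was above every control with the eIF4E2 hairpin (17.1%), though the lower replicate, at 17.5 TPM, hardly differed from the 17.3 TPM of scramble 2. With libraries centred on their median gene, no member was above every control in eIF4E2 input, and PSAT1 and MTHFD2 were below every control (11.4%). Centring also made PSAT1 and SHMT2 the footprint members for METTL16 depletion (2.61%) and for eIF4E2 depletion (12.4%). Over all 16 libraries, limma contrasts of METTL16-depleted and of eIF4E2-depleted samples with the 3 controls called no member and 0 genes, with 50 lower genes at an unadjusted p under 0.05 in input and 129 in footprints for METTL16, and 74 and 290 for eIF4E2. By voom the count was also 0. The PSAT1 footprint difference was -0.93 for METTL16 depletion (SE 0.52, limma adjusted p = 0.997) and -0.84 for eIF4E2 depletion (SE 0.58, limma adjusted p = 0.999).

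**Figure D3:**
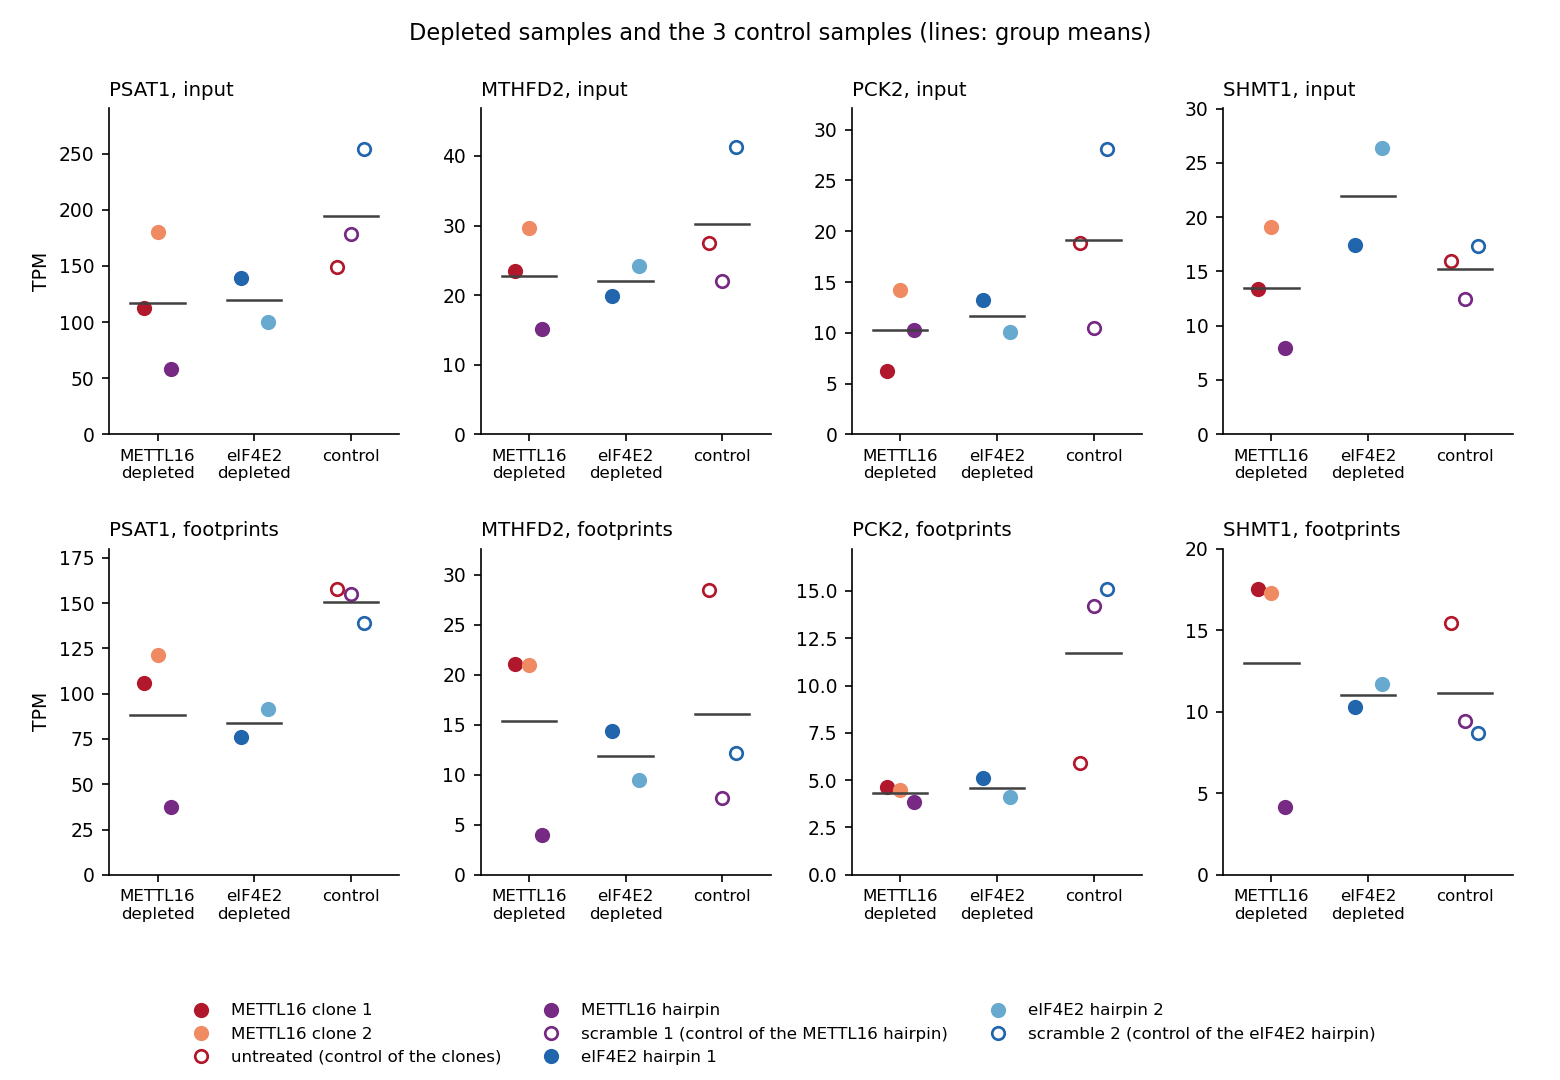
TPM of PSAT1, MTHFD2, PCK2 and SHMT1 in input (top) and footprints (bottom) by group, with 1 point per sample and a line at the group mean. PSAT1 and PCK2 footprints of the 5 depleted samples lie below those of the 3 controls on this TPM scale (for PCK2 not after centring on the median gene), while input of both overlaps between METTL16-depleted and control samples.

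Translation efficiency separated no member between all 5 depleted samples and the 3 controls, against 1.33% of genes lower. For PHGDH it was 0.572 to 1.57 in the depleted samples and 0.695 to 1.69 in the controls. The efficiency of PCK2 was 0.314 to 0.747 in the 5 depleted samples, against 0.314, 1.35 and 0.537 in the controls, a range of 4.30 times among controls. With the eIF4E2 hairpin the efficiency of MTHFD2 was 2.45 times that of scramble 2 in replicate 1 (conditional exact 95% interval 1.47 to 4.09) and 1.33 times in replicate 2 (0.786 to 2.25). The footprint libraries of that table were the shallowest, with 7 or 8 reads for the median gene.

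**Figure D4:**
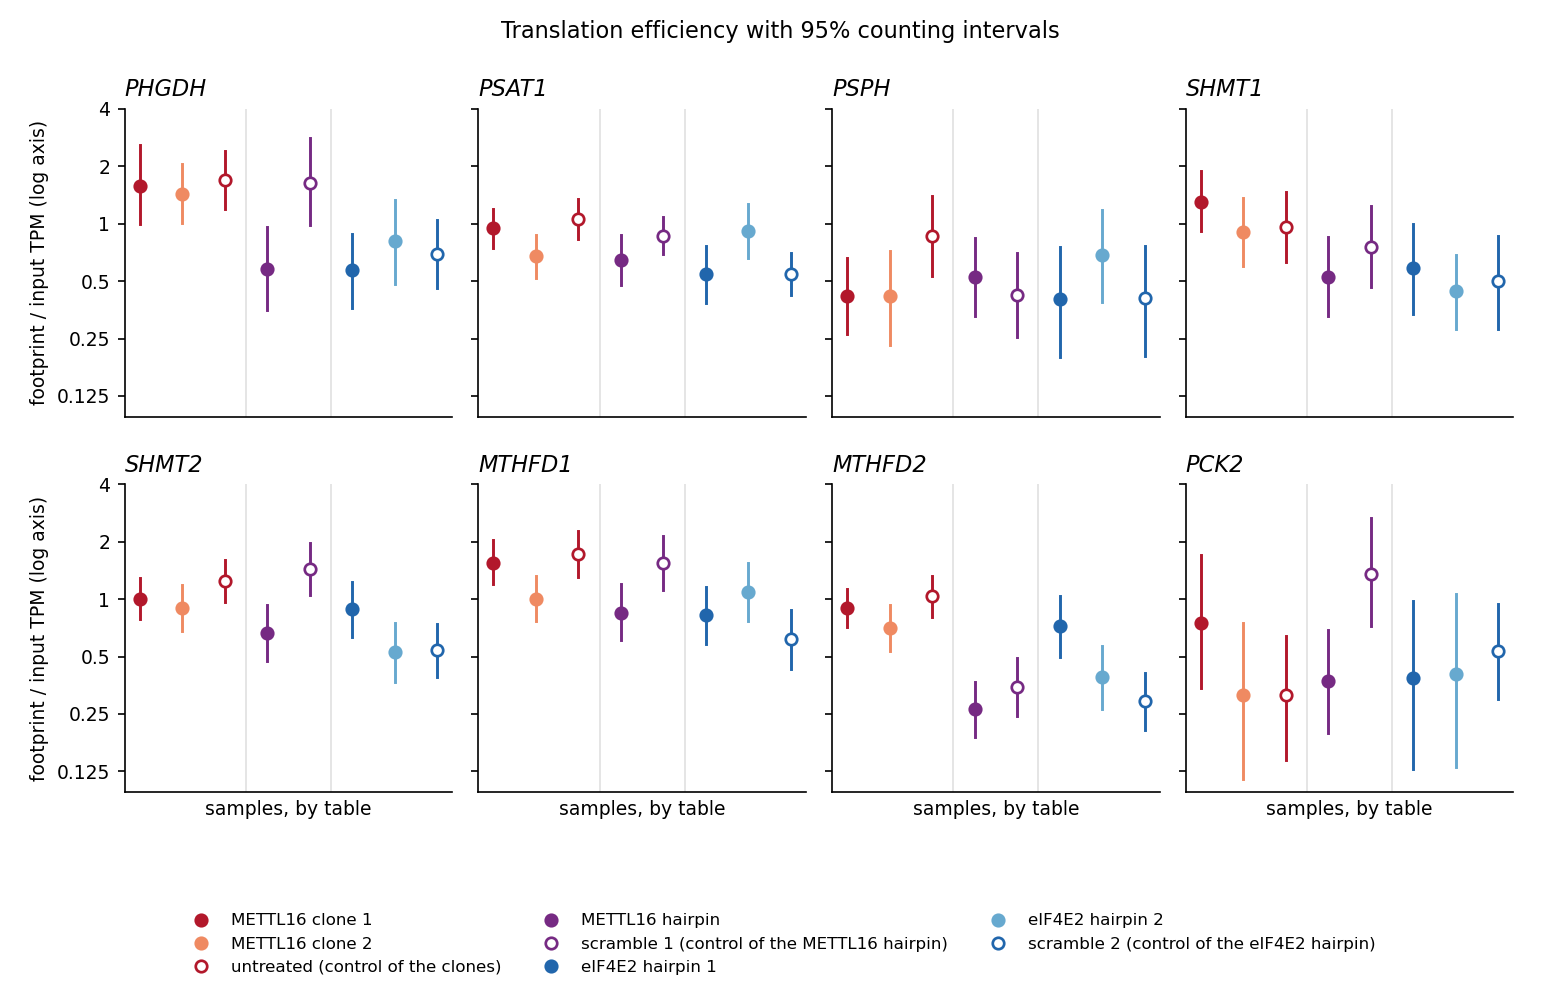
Footprint over input TPM on a log axis for 8 members in each sample, grouped by table, with 95% intervals for counting error, filled points for depleted samples and open points for controls. Efficiencies of PHGDH, SHMT2, MTHFD1 and MTHFD2 shift between tables, controls included.

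ATF4 and its pathway were read beside the members. ATF4 input was 137 and 173 TPM in the clones against 152 TPM, 73.8 TPM with the METTL16 hairpin against 123 TPM, and 135 and 107 TPM with the eIF4E2 hairpin against 189 TPM. Like the summed input of the members, ATF4 mRNA was lowest with the METTL16 hairpin and highest in scramble 2. ATF4 footprints were 30.2 and 34.8 TPM against 41.2 TPM, 8.16 against 9.56 TPM, and 31.4 and 20.7 TPM against 44.7 TPM in the same pairs. NFE2L2, which encodes NRF2, had an input of 9.56 and 14.4 TPM in the clones against 3.13 TPM from 7 reads, a log2 difference of 1.63 (SE 0.40, limma adjusted p = 0.267). Scramble 1 had 25.8 TPM and scramble 2 had 11.1 TPM of NFE2L2 input, so that the untreated control was the lowest of the 8 samples.

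Further genes came from a list of 40 folate and amino acid partners and one of 26 genes of the ATF4 pathway, and none passed limma in any comparison. In the clones the input medians were 0.05 over 32 measured partners and 0.20 over 23 ATF4 pathway genes, against 0.10 for all genes. SLC38A2, a neutral amino acid transporter, had 89.7 and 77.7 TPM of input in the clones against 28.0 TPM, a log2 difference of 1.54 (SE 0.27, limma adjusted p = 0.186). SLC7A11, the cystine transporter, had 56.0 and 51.4 TPM against 24.7 TPM, and TRIB3, a pseudokinase induced by ATF4, 41.5 and 51.2 TPM against 90.8 TPM. The scrambles had 122 and 87.2 TPM of SLC38A2 and 108 and 62.7 TPM of SLC7A11, so that for both genes the untreated control was the lowest of the 8 samples, and both clones lay within the range of the 3 controls. Among the partners, input was lower in both clones for 8 of 32, against 29.6% of all genes, and higher in both for 12, against 43.3%.

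With the METTL16 hairpin the partner median was -0.53 in input over 31 genes and that of the ATF4 pathway -0.20 over 21, against -0.32 for all genes. GOT1, the cytosolic aspartate aminotransferase, had the lowest partner value, with 4.08 TPM of input against 20.5 TPM in scramble 1. With the eIF4E2 hairpin the medians were -0.45 over 31 partners and -0.51 over 23 ATF4 pathway genes, against -0.10 for all genes. Input was lower in both replicates for 22 of 31 partners and 17 of 23 ATF4 pathway genes, against 46% of all genes. By voom against scramble 2 alone, which called 2.36% of all genes lower, 3 partners fell in input, SLC38A2 (-1.34, adjusted p = 2.77e-07), the glutamine transporter SLC1A5 (-0.65, adjusted p = 4.34e-04) and PPAT, the first enzyme of purine synthesis (-1.52, adjusted p = 0.0148). In the ATF4 pathway 5 fell, among them STC2, a secreted glycoprotein (-1.24, adjusted p = 4.61e-05), and SLC7A11 (-0.91, adjusted p = 2.16e-04). STC2 input was 30.3 and 31.5 TPM with the eIF4E2 hairpin against 78.7 TPM in scramble 2, with 53.0 and 72.2 TPM in the other controls. The untreated control was below both eIF4E2-depleted samples for SLC38A2 (29.1 and 34.9 TPM against 28.0 TPM), SLC7A11 (33.8 and 28.2 TPM against 24.7 TPM) and PPAT (7.06 and 6.03 TPM against 4.66 TPM). For SLC1A5, with 209 and 195 TPM in the eIF4E2-depleted samples, scramble 1 was below them at 173 TPM. Against all 3 controls, voom called 0 genes of either list in input.

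Across the 8 samples, some genes outside the group followed the mean of its 8 fully listed members closely. In input the 5 with the highest Pearson r among 5117 genes were KCTD2 (r = 0.991), WARS1 (0.988), NOP56 (0.980), QRICH1 (0.979) and TAF15 (0.977). WARS1 is the cytosolic tryptophanyl-tRNA synthetase and NOP56 a protein of small nucleolar ribonucleoproteins. In footprints they were IPO5 (0.994), GARS1 (0.990), TAF15 (0.989), CPSF7 (0.988) and TARS1 (0.985). GARS1 and TARS1 are the glycyl- and threonyl-tRNA synthetases. An r of at least 0.9 was reached by 167 genes in input and 660 in footprints, and the samples share tables and controls, so these values describe the samples and carry no test.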

How the data were processed

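The tools named by the submitters' processing notes are featureCounts 2.0.1, STAR 2.7.5c, cutadapt 2.8 and both Bowtie2 2.2.5 and Bowtie 1.3.0, with the build GRCh38 and with no settings or order given in the sources used here. The authors deposited TPM values, already normalised within each library, in 3 tables. They list 9943 to 10750 genes per library, holding 44.6% to 49.8% of input TPM and 16.1% to 35.1% of footprint TPM, so the rest of each total is not analysed here.

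The members and all gene lists were chosen with earlier results of these data known. Genes listed in all samples compared, with a mean of at least 1 TPM in input and in footprints, were kept, 8021 to 8597 per comparison, and these held 8 or 9 members. Differences are log2(TPM + 1), which understates those of low genes, tested with limma 3.58.1 in R 4.3.3 on group means over both assays of a table, adjusted by Benjamini-Hochberg across every kept gene, and once more over all 16 libraries. Each table has 1 control, so p-values measure the spread between clones or replicates. The METTL16 hairpin pair has no replicate and no test of its own. In fits over all 16 libraries its samples enter beside others, and where they form a group of their own they are assumed to vary like the clones and the eIF4E2 replicates. The TPM values were also turned back into whole reads, since steps between low values equal 1 read, for 11892 of 11892 genes with at least 2 values at a relative tolerance of 1e-10, and limma-voom was run on these. Exact Clopper-Pearson intervals at 95% cover counting error only. Summaries used Python 3.11.15 with scipy 1.17.1, and the fits were tested on simulated data. Beyond the members, the targeted genes, ATF4 and NFE2L2, list genes could be named if they passed a threshold or were among the 2 highest or 2 lowest differences of a comparison at a mean input of at least 10 TPM, and the 5 genes of most like pattern were named. The voom fit with both scrambles and the centring of libraries were chosen after seeing the data.

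The pairing of libraries comes from the labels: replicate numbers name a clone or biological replicate that gave both an input and a footprint library. Differences between replicates 1 and 2 in input and in footprints correlated with r of 0.15 for the clones, -0.02 for the eIF4E2 hairpin and 0.30 for the scrambles, across 8021 genes.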

Additional observations from a re-analysis of the deposited data

Results flagged for a closer look

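The METTL16 clones and the METTL16 hairpin went opposite ways for 4 values, each as a log2(TPM + 1) difference from the sample's own control, with every clone on one side and the hairpin sample on the other. For PCK2 translation efficiency in clone 2, the direction rests on the 1 TPM added. As footprint over input TPM, clone 2 was at 0.3143, from 7 footprint reads, and its control at 0.3144. PSPH input differed by 0.03 in clone 1 and 0.37 in clone 2, and by -0.87 with the hairpin. The limma estimate of clones minus hairpin over all 16 libraries was 1.07 (SE 0.50, adjusted p = 0.365). PSPH translation efficiency differed by -0.99 and -1.01 in the clones and by 0.32 with the hairpin, and that estimate was -1.32 (SE 0.71, adjusted p = 0.695). SHMT1 footprints differed by 0.17 and 0.15 in the clones and by -1.01 with the hairpin, with an estimate of 1.17 (SE 0.58, adjusted p = 0.236). PCK2 translation efficiency differed by 1.16 and 0.04 in the clones and by -1.62 with the hairpin, with an estimate of 2.23 (SE 1.01, adjusted p = 0.647).

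The hairpin side of these estimates is 1 sample and 1 control, whose spread was assumed to be that of the clones and the eIF4E2 replicates. The 4 values were picked because the directions were opposite, so their p-values support neither a difference nor its absence. The share of all genes with opposite directions is not given here. In the same fit the median of clones minus hairpin over all genes was 0.46 in input, 0.84 in footprints and 0.35 in translation efficiency. The 4 estimates are to be read against those medians. Over all genes that fit called 7 of 8021 in input, 68 in footprints and 0 in translation efficiency, where 609 had an unadjusted p under 0.05. Footprints of the hairpin sample were below scramble 1 for 95.2% of genes, with an all-gene median difference of -1.06. The SHMT1 value of -1.01 lay 0.05 above that median, and 53.6% of genes had a lower value.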

How the results depend on the processing

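The count of members passing limma stayed at 0 under each alternative run except voom on recovered reads, which called 2 members in input and 1 in footprints with the eIF4E2 hairpin. The values that follow are member median minus all-gene median, in log2 units. For the METTL16 hairpin the values of the report's own settings were -0.27 in input, -0.41 in footprints and 0.27 in translation efficiency, and they were -0.292 in input, -0.307 in footprints and 0.0863 in translation efficiency at a pseudocount of 0.1 TPM. With no filter they were -0.284, -0.516 and 0.183, with median-of-ratios scaling -0.268, -0.265 and 0.0896, with quantile normalization -0.309, -0.269 and 0.141, and with both scrambles as controls -0.484, -0.317 and 0.300. For eIF4E2 input, both scrambles gave -0.114 by limma and -0.118 by voom, and for its translation efficiency voom with both scrambles gave -0.174. Over all 16 libraries, a table term gave -0.354 for eIF4E2 input and 0.0248 for its translation efficiency. Leaving out 1 sample at a time, translation efficiency of the clones ranged from -0.0459 to 0.0963, highest without clone 2, and that of the eIF4E2 table from -0.252, without replicate 2, to 0.0166. Over all libraries, eIF4E2 input ranged from -0.327, without scramble 1, to -0.113, and eIF4E2 translation efficiency from -0.207, without eIF4E2 replicate 2, to 0.0764, without scramble 1. Turned in direction were MTHFD1 translation efficiency with the eIF4E2 hairpin, at -0.0339 with both scrambles and -0.0821 by voom with both, and, over all 16 libraries for eIF4E2, the translation efficiency of SHMT2, at 0.33 with a table term, and of PCK2, from -0.944, without the untreated control, to 0.0163, without scramble 1. The cause was not tested.

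With the sample as a replicate block, which pairs its input and footprint library, no call on translation efficiency changed. PSPH in the clones was at -1.00002 (limma adjusted p = 0.432), and the member median minus the all-gene median was -0.0473 in the clones and 0.0231 with the eIF4E2 hairpin. ALDH1L2 rested on at most 19 reads per library and PCK2 on at most 41, and the eIF4E2 footprint libraries had 7 or 8 reads for the median gene. Each group has a single control in its table, and the table and the control cannot be told apart.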
